A study of Homo sapiens with 24 samples.

Results

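The human mitochondrial genome was examined through the RNA of all 37 genes that it carries, which are 13 protein genes, 2 rRNA genes and 22 tRNA genes. These genes were chosen by their names, which start with MT-, in the table of the KIF20A depletion experiment, and they are 37 of the 60651 rows of that table. The tables of Hs578T, of HCC70 and of the overexpression experiment hold 0 such rows, so 6 of the 24 libraries of the series are described here. Of these, 3 carried a control sgRNA (sgCtrl) and the other 3 the first guide against KIF20A (KIF20A sg1), all made from MDA-MB-231, an established human triple-negative breast cancer cell line, and all of the same labelled batch. Both groups carried a lentiviral CRISPR vector and had passed through puromycin selection as mixed cell populations, and cells of 1 guide against KIF20A were sequenced. KIF20A encodes a kinesin, a motor protein of microtubules that acts in late cell division. RNA was selected by its poly-A tail for stranded libraries. Values are reads per gene divided by 1 factor per library, and are named CPM by the authors.

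The mitochondrial genome is a small circle in many copies per cell. Its heavy and light strands are each transcribed as long RNAs, and cutting at the tRNAs that stand between most genes releases the mRNAs and rRNAs. The 13 proteins are subunits of complexes I, III, IV and V of oxidative phosphorylation, the 2 rRNAs form the core of the mitochondrial ribosome, and the 22 tRNAs serve its translation. Short poly-A tails are added to most mitochondrial mRNAs, where they complete stop codons that the genome leaves unfinished, and to the rRNAs. Mature tRNAs receive CCA ends instead.

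The ends of the protein genes show what a poly-A tail adds. In 6 of the 13 protein genes the length is no multiple of 3, and 5 of these end in a single T after the last whole codon and 1 in TA. Sequences are from GRCh38, with coordinates from GENCODE 44, and each gene is a single exon. For 4 genes whose levels are described below, the last 15 bases are given 5′ to 3′ with the last whole or partial codon in capitals, for MT-ND1 (chrM:4248-4262, + strand), MT-CO1 (chrM:7431-7445, + strand), MT-ND3 (chrM:10390-10404, + strand) and MT-ND6 (chrM:14149-14163, − strand).
MT-ND1: tccccctcaaaccTA
MT-CO1: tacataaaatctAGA
MT-ND3: tagactgaaccgaaT
MT-ND6: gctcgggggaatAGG
In 2 pairs, protein genes of the same strand overlap by more than 1 base, and the shared bases are shown because reads on them belong to both genes. MT-ATP8 and MT-ATP6 share 46 bases (chrM:8527-8572, + strand), in which capitals mark the start codon of MT-ATP6 and the stop codon of MT-ATP8. MT-ND4L and MT-ND4 share 7 bases, printed in capitals with 12 bases on each side (chrM:10748-10778, + strand).
MT-ATP8 and MT-ATP6: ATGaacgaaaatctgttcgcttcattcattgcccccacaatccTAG
MT-ND4L and MT-ND4: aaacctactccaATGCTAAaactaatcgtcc
The tRNA for proline, MT-TP, was the tRNA with by far the most reads, and its gene of 68 bases (chrM:15956-16023, − strand) is given in the sense of the tRNA.
MT-TP: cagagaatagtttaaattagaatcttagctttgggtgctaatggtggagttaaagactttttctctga

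The targeted gene, KIF20A, had 153, 173 and 156 CPM in sgCtrl against 122, 145 and 91.1 CPM in KIF20A sg1. The groups did not overlap, as for 13.0% of all genes tested, and the log2 fold change was -0.45 ± 0.16 (SE; limma, adjusted p = 0.69). Depth was 44545828 to 50180783 reads in sgCtrl and 41424338 to 51018667 in KIF20A sg1. Of the 6 markers of mesenchymal triple-negative cells examined, all were present in every library, with a summed level of 5376 to 6281 CPM in sgCtrl and 5337 to 6184 CPM in KIF20A sg1. Of 6 genes that such cells lack or express weakly, ESR1, PGR and KRT5 were listed at 0 throughout, and the sum was 116 to 160 CPM and 106 to 124 CPM, most of it from ERBB2. EPCAM was listed at 16.0 to 22.0 CPM and CDH1 at 0.191 to 2.16 CPM over the 6 libraries. Of 6 genes of blood, endothelial, liver and stromal cells, CD3E and ALB were at 0. The sum of the 6 was 10.0 to 14.8 CPM and 11.3 to 16.0 CPM, most of it from COL1A1.

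Mitochondrial RNA made up between 1.13% and 3.82% of the reads of a library. It accounted for 2.84%, 1.34% and 1.13% of the sgCtrl libraries and for 2.48%, 1.70% and 3.82% of the KIF20A sg1 libraries. The highest and the lowest library differed by 3.38-fold, and the groups overlapped, since sgCtrl replicate 1 lay above replicates 1 and 2 of KIF20A sg1. The Wilson 95% intervals of these shares were at most 0.0117 percentage points wide and cover counting error only. The mean share was 1.77% ± 0.933 in sgCtrl and 2.67% ± 1.07 in KIF20A sg1 (SD, n = 3), a difference of 0.899 percentage points (exact permutation test, two-sided p = 0.3, and 0.7 after adjustment over 4 shares). The smallest p that 3 libraries against 3 allow is 0.1. In bulk RNA, fewer cells with a high level and less RNA per cell cannot be told apart. Without KIF20A sg1 replicate 3 the difference was 0.322 percentage points, without sgCtrl replicate 3 it was 0.579, and without sgCtrl replicate 1 or KIF20A sg1 replicate 2 it was 1.43 and 1.38.

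**Figure D1:**
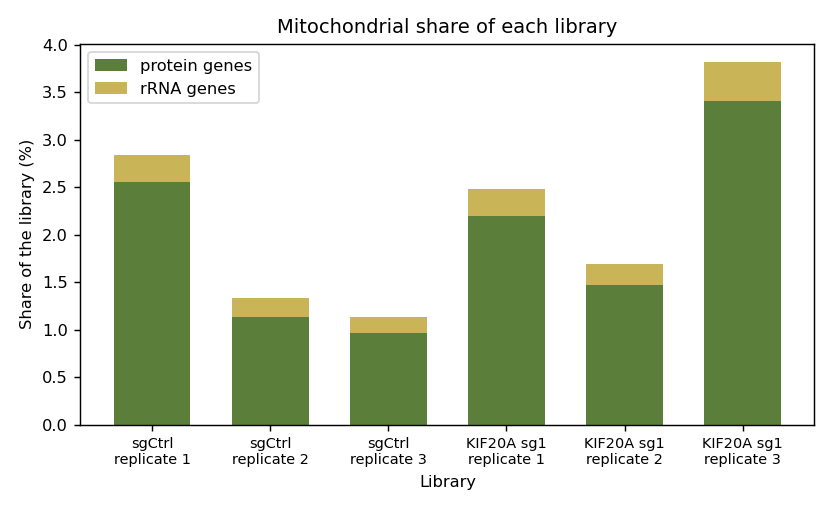
Stacked bars give the percent of each library's signal that fell on mitochondrial protein genes and rRNA genes, with tRNA too small to draw. KIF20A sg1 replicate 3 stands highest at 3.82%, followed by sgCtrl replicate 1 at 2.84%, and the bars of both groups overlap in height.

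The libraries with the highest mitochondrial share were also those with the fewest reads. KIF20A sg1 replicate 3 had 41424338 reads and sgCtrl replicate 1 had 44545828, whereas the other 4 libraries had 47865682 to 51018667. KIF20A was lowest, at 91.1 CPM, in KIF20A sg1 replicate 3 and was 153 CPM in sgCtrl replicate 1. The part of depth and of KIF20A in the mitochondrial share was not tested.

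Complex IV, cytochrome c oxidase, has 3 of its subunits encoded here. MT-CO1, the catalytic subunit, was listed at 6006, 2723 and 2408 CPM in sgCtrl and at 5078, 3477 and 8416 CPM in KIF20A sg1. MT-CO2, which takes up electrons from cytochrome c, was listed at 2844, 1584 and 1490 CPM in sgCtrl and at 2993, 2195 and 3978 CPM in KIF20A sg1. MT-CO3, the third core subunit, was listed at 2103, 957 and 776 CPM in sgCtrl and at 1558, 1022 and 2322 CPM in KIF20A sg1. In all 3 genes the highest value was in KIF20A sg1 replicate 3 and the lowest in sgCtrl replicate 3, and the groups overlapped through sgCtrl replicate 1. The log2 fold changes of KIF20A sg1 over sgCtrl, on the scale of log2(CPM + 1), were 0.64 for MT-CO1, 0.65 for MT-CO2 and 0.41 for MT-CO3 (standard errors 0.38, 0.28 and 0.36), with adjusted p of 0.71, 0.69 and 0.81 from limma.

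Complex I, NADH dehydrogenase, holds 7 of the 13 proteins, among them the proton-pumping subunits of its membrane arm. MT-ND1 was listed at 1685, 603 and 439 CPM in sgCtrl and at 1173, 735 and 1954 CPM in KIF20A sg1. MT-ND2 was listed at 2205, 1061 and 968 CPM in sgCtrl and at 2008, 1523 and 2838 CPM in KIF20A sg1. MT-ND4 was listed at 3610, 1597 and 1214 CPM in sgCtrl and at 3348, 2217 and 5326 CPM in KIF20A sg1. These 3 genes had the same order of libraries, with KIF20A sg1 replicate 3 first, sgCtrl replicate 1 next and sgCtrl replicate 3 last. MT-ND5 was listed at 1640, 733 and 485 CPM in sgCtrl and at 1452, 993 and 2259 CPM in KIF20A sg1. MT-ND4L, the smallest subunit encoded in this genome for complex I, was listed at 376, 166 and 102 CPM in sgCtrl and at 306, 215 and 516 CPM in KIF20A sg1. Both again followed that order, so the groups overlapped. Of the 7 genes, MT-ND4 had the largest log2 fold change, 0.83 ± 0.39 (SE; limma, adjusted p = 0.69), and MT-ND5, MT-ND4L, MT-ND2 and MT-ND1 had 0.83, 0.80, 0.65 and 0.64.

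MT-ND3, another complex I subunit, hardly varied. It was listed at 416, 306 and 392 CPM in sgCtrl and at 390, 352 and 399 CPM in KIF20A sg1. The library with the lowest mitochondrial share, sgCtrl replicate 3, had the third highest value of MT-ND3, and the highest value was only 1.36-fold above the lowest. The log2 fold change was 0.04 (SE 0.14, 95% interval -0.27 to 0.36; limma, adjusted p = 0.95), and -0.089 without sgCtrl replicate 2. As a share of the mitochondrial signal, MT-ND3 was 1.5%, 2.26% and 3.44% in sgCtrl and 1.57%, 2.02% and 1.06% in KIF20A sg1. With MT-ND3 nearly constant, this share falls as the mitochondrial total rises, and it is no separate observation. It was lowest in the library with the highest mitochondrial share and highest in the library with the lowest. The means were 2.40% ± 0.979 and 1.55% ± 0.481 (SD, n = 3), given as a description since MT-ND3 was singled out for this pattern.

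MT-CYB, the cytochrome b of complex III, was listed at 1363, 690 and 454 CPM in sgCtrl and at 1319, 806 and 2124 CPM in KIF20A sg1. For complex V, ATP synthase, MT-ATP6, which forms part of the proton channel, was listed at 2298, 947 and 820 CPM in sgCtrl and at 1974, 1327 and 3011 CPM in KIF20A sg1. Both had the same order of libraries as MT-ND4. Their log2 fold changes were 0.80 (standard error 0.39) and 0.71 (standard error 0.37), with adjusted p of 0.69 and 0.70 from limma. MT-ATP8, a small membrane subunit, was far lower, at 22.2, 5.43 and 2.93 CPM in sgCtrl and at 7.48, 5.87 and 13.2 CPM in KIF20A sg1. Here sgCtrl replicate 1 was highest, and its 7.58-fold range was the widest of the 16 genes tested. MT-ATP8 averaged 10.2 ± 10.5 CPM over the sgCtrl libraries and 8.85 ± 3.86 CPM over those of KIF20A sg1 (SD, n = 3), lower in the latter, while the log2 fold change was 0.17 ± 0.52 (SE; limma, adjusted p = 0.95). It was -0.20 with edgeR and -0.21 with DESeq2, so no direction is given for this gene.

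**Figure D2:**
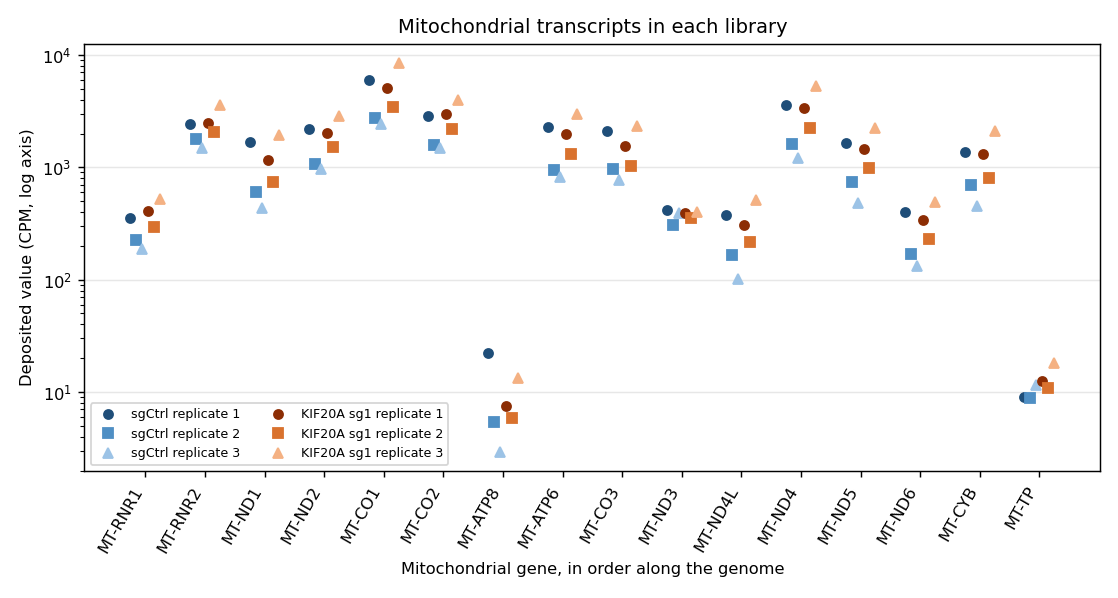
Points give the deposited value (CPM, log axis) of the 16 genes tested in each of the 6 libraries, with blue for sgCtrl, orange for KIF20A sg1 and a marker shape per replicate. Most genes span a wide range with the groups interleaved, the 6 points of MT-ND3 lie between 306 and 416, and MT-ATP8 and MT-TP lie far below the rest.

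Per kilobase of gene, MT-CO2 was highest, at a mean of 3675 CPM per kilobase over the 6 libraries, followed by MT-CO1 at 3038, MT-ATP6 at 2540 and MT-ND4 at 2094. In all 6 libraries MT-CO2 lay above MT-CO1 and MT-CO1 above MT-ATP6. MT-ND4 and MT-CO3 (1858) could not be put in order, since each was higher in 3 of the 6 libraries, and the same held for MT-ND1 (1149) and MT-ND3 (1086). At the lower end, MT-ND5 (696), MT-ND6 (557) and MT-RNR1 (347) kept their order in all 6 libraries, and MT-ATP8 was the lowest gene tested, at 46.0 CPM per kilobase.

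The genes that overlap on the genome differed from each other in level. MT-ATP8 and MT-ATP6 are known to lie on 1 mRNA, but per kilobase MT-ATP6 was 31.5, 53.0 and 85.1 times MT-ATP8 in the sgCtrl libraries and 80.2, 68.7 and 69.3 times in the KIF20A sg1 libraries. MT-ND4L and MT-ND4 also share an mRNA, and per kilobase MT-ND4L stood at 0.483, 0.483 and 0.390 of MT-ND4 in sgCtrl and at 0.424, 0.450 and 0.449 in KIF20A sg1. The ratio of the first pair spread more between the sgCtrl libraries than between those of KIF20A sg1, and that of the second pair stayed within 1.24-fold. How reads that fall on both genes of a pair were counted is not given in the sources used here, so the levels of MT-ATP8 and MT-ND4L are uncertain. Neither ratio separated the groups (exact permutation tests on the inverse ratio of the first pair and on the ratio of the second, two-sided p = 0.4 and p = 1, both after seeing the data, and 0.6 and 1 after adjustment over 3 such ratios).

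The rRNAs varied less than most protein genes. MT-RNR1, the small-subunit rRNA, was listed at 353, 224 and 189 CPM in sgCtrl and at 404, 295 and 519 CPM in KIF20A sg1. MT-RNR2, the large-subunit rRNA, was listed at 2434, 1773 and 1495 CPM in sgCtrl and at 2490, 2051 and 3577 CPM in KIF20A sg1. In both, KIF20A sg1 replicates 3 and 1 were the highest libraries and sgCtrl replicates 2 and 3 the lowest, with sgCtrl replicate 1 above KIF20A sg1 replicate 2. MT-RNR1 had a log2 fold change of 0.68 (standard error 0.24) with an unadjusted p of 0.016 and an adjusted p of 0.69 from limma, and MT-RNR2 one of 0.50 ± 0.24 (SE, adjusted p = 0.69). Per kilobase, MT-RNR2 was 3.77 to 4.85 times MT-RNR1 in the 6 libraries. These are levels after poly-A selection.

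As a share of the mitochondrial signal, the rRNAs took 10.0%, 14.7% and 14.8% in sgCtrl and 11.6%, 13.4% and 10.8% in KIF20A sg1. The smallest rRNA shares were those of sgCtrl replicate 1 and KIF20A sg1 replicate 3, the libraries with the most mitochondrial RNA. The means were 13.2% ± 2.73 and 12.0% ± 1.33 (SD, n = 3), which differed by less than the spread between replicates (exact permutation test, two-sided p = 0.6, and 0.7 after adjustment over 4 shares).

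Among the tRNAs, MT-TP alone passed the minimum mean of 1 CPM for testing. It was listed at 9.04, 8.77 and 11.6 CPM in sgCtrl and at 12.4, 10.8 and 18.3 CPM in KIF20A sg1, from 412 to 766 reads per library. It did not follow the order of the protein genes, since sgCtrl replicate 1 was next to lowest, and the groups overlapped only by sgCtrl replicate 3, which lay above KIF20A sg1 replicate 2. The log2 fold change was 0.43 ± 0.20 (SE; limma, adjusted p = 0.69). Its gene has 2 bases to the neighbour on one side and, across the start of the numbering of the circle, 1122 bases without an annotated gene on the other, where the control region lies.

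The other 21 tRNAs had 29 reads in all over the 6 libraries, with 2 to 7 reads per library for all 21 together and no more than 4 for any one tRNA in a library. For 15 of them there was no read in any library, which allows up to 0.0602 to 0.0716 CPM per library (the value of 3 reads). The 6 with a read were MT-TN (9 reads over the 6 libraries), MT-TF (8), MT-TC (5), MT-TY (4), MT-TS1 (2) and MT-TE (1). Of the 8 tRNAs transcribed from the light strand, 6 had a read, MT-TP included, against 1 of the 14 from the heavy strand. The tRNA genes are 59 to 75 bases long, and 18 of the 22 touch or overlap another gene. As a share of the mitochondrial signal, all tRNAs together took 0.0328%, 0.0656% and 0.102% in sgCtrl and 0.0506%, 0.0626% and 0.0486% in KIF20A sg1, nearly all from MT-TP. The means of 0.0670% ± 0.0348 and 0.0540% ± 0.00756 (SD, n = 3) did not differ beyond the spread (exact permutation test, two-sided p = 0.7), and the difference changed sign without sgCtrl replicate 3.

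Other RNAs without a long poly-A tail gave little signal. Over 15 such nuclear RNAs, among them RN7SL1 of the signal recognition particle and spliceosomal RNAs, the sum was 8.43, 8.01 and 2.81 CPM in sgCtrl and 4.68, 3.06 and 1.86 CPM in KIF20A sg1, most of it RN7SL1. KIF20A sg1 replicate 3, which had the most mitochondrial RNA, had the lowest sum, and sgCtrl replicate 1 had the highest. The part of such RNA in the mitochondrial levels was not tested.

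From the light strand, MT-ND6 is the single protein gene. This subunit of complex I was listed at 397, 169 and 133 CPM in sgCtrl and at 338, 229 and 488 CPM in KIF20A sg1. It followed the same order of libraries as MT-ND4, and its log2 fold change was 0.69 ± 0.36 (SE; limma, adjusted p = 0.70). Per kilobase, MT-ND6 stood at 0.836, 0.796 and 0.945 of MT-ND5, its neighbour on the heavy strand, in sgCtrl and at 0.803, 0.795 and 0.746 in KIF20A sg1 (exact permutation test, two-sided p = 0.2, and 0.6 after adjustment over 3 such ratios). All 9 light-strand genes together took 1.46%, 1.31% and 1.27% of the mitochondrial signal in sgCtrl and 1.41%, 1.37% and 1.34% in KIF20A sg1. Nearly all of it came from MT-ND6, with 80975 reads over all libraries against 3315 for MT-TP. This share of the mitochondrial signal ranged 1.15-fold, where the mitochondrial share of the whole library ranged 3.38-fold. The group means were 1.35% ± 0.102 and 1.38% ± 0.0343 (SD, n = 3; exact permutation test, two-sided p = 0.7, and 0.7 after adjustment over 4 shares). The difference changed sign without sgCtrl replicate 3. The libraries were stranded, but the strand setting of the counting is not given in the sources used here.

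In the comparison of KIF20A sg1 with sgCtrl, 0 of the 16 mitochondrial genes tested had an adjusted p under 0.05 from limma, and 0.00% of the 12852 genes tested did. The adjusted p of the members lay between 0.69 and 0.95. With edgeR 0 and with DESeq2 0 of the 16 passed, where DESeq2 called 16 of all genes, or 0.124%. An unadjusted p under 0.05 was reached by 2 members in limma (MT-RNR1 and MT-CO2), against 7.00% of all genes, by 4 in edgeR, against 7.56%, and by 3 in DESeq2, against 8.02%. All 16 fitted log2 fold changes were above 0, as were those of 50.4% of all genes, and the median was 0.65, against 0.00 for all genes tested. The median was 0.65 for the 13 protein genes and 0.59 for the 2 rRNAs. The members share their order of libraries and are not independent of each other. Groups that did not overlap were found for 0 of the 16 members and for 13.0% of all genes.

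**Figure D3:**
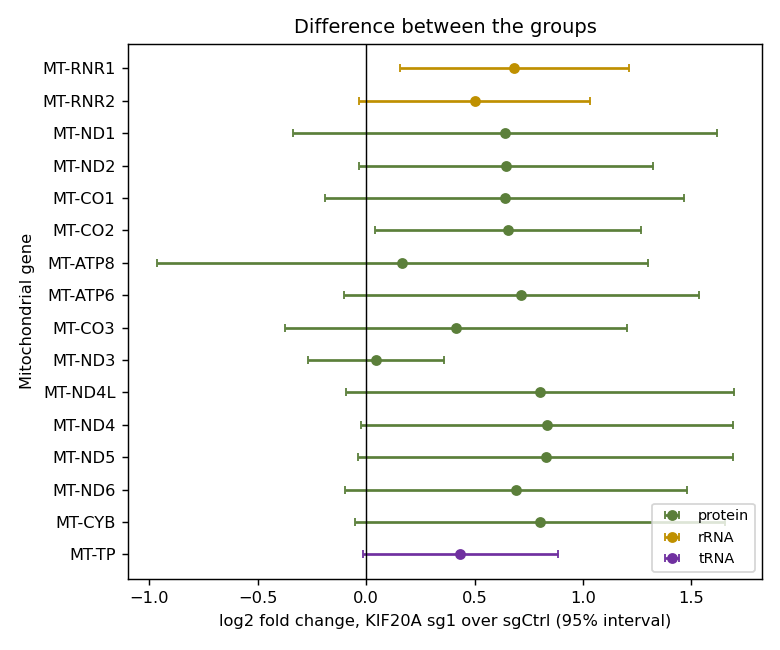
Points give the log2 fold change of KIF20A sg1 over sgCtrl for the 16 genes tested, and bars the 95% interval from limma, with colours for protein, rRNA and tRNA genes. Every point lies right of 0, from 0.04 for MT-ND3 to 0.83 for MT-ND4, and 14 of the 16 intervals include 0.

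The comparison moved with the libraries that entered it. Without sgCtrl replicate 1, the median log2 fold change of the protein genes was 1.16, and 14 of the 16 members had an unadjusted p under 0.05, where 5.36% of all genes did, yet none had an adjusted p under 0.05 from limma (lowest 0.88). Without KIF20A sg1 replicate 2 the median was 0.97, with 13 of 16 at an unadjusted p under 0.05 against 5.83% of all genes, while 0 members and 0.0389% of all genes passed after adjustment. The other removals left few members at an unadjusted p under 0.05. There were 0 of 16 without sgCtrl replicate 2 (median 0.53, against 2.39% of all genes) and 0 without KIF20A sg1 replicate 3 (median 0.42, against 4.69%). There was 1 of 16 without KIF20A sg1 replicate 1 (median 0.67, against 4.52%) and 1 without sgCtrl replicate 3 (median 0.39, against 24.2%). With both libraries of the highest mitochondrial share left out, a choice made after their values were seen, the median was 0.85, with 14 of 16 at an unadjusted p under 0.05 against 3.38% of all genes, and again 0 members passed after adjustment.

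The libraries kept nearly the same order from gene to gene. In 10 of the 15 protein and rRNA genes the order from high to low was KIF20A sg1 replicate 3, sgCtrl replicate 1, KIF20A sg1 replicate 1, KIF20A sg1 replicate 2, sgCtrl replicate 2 and sgCtrl replicate 3. In MT-CO2 and the 2 rRNAs, KIF20A sg1 replicate 1 and sgCtrl replicate 1 changed places. MT-ATP8 had its 2 highest libraries exchanged, and MT-ND3 had an order of its own. In 14 of the 15 genes, all but MT-ND3, KIF20A sg1 replicates 1 and 2 lay above sgCtrl replicates 2 and 3. This choice of libraries was made after the order was seen, and no share over all genes is given for it. The genes share their order, so the count is a description and not repeated evidence of a difference.

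**Figure D4:**
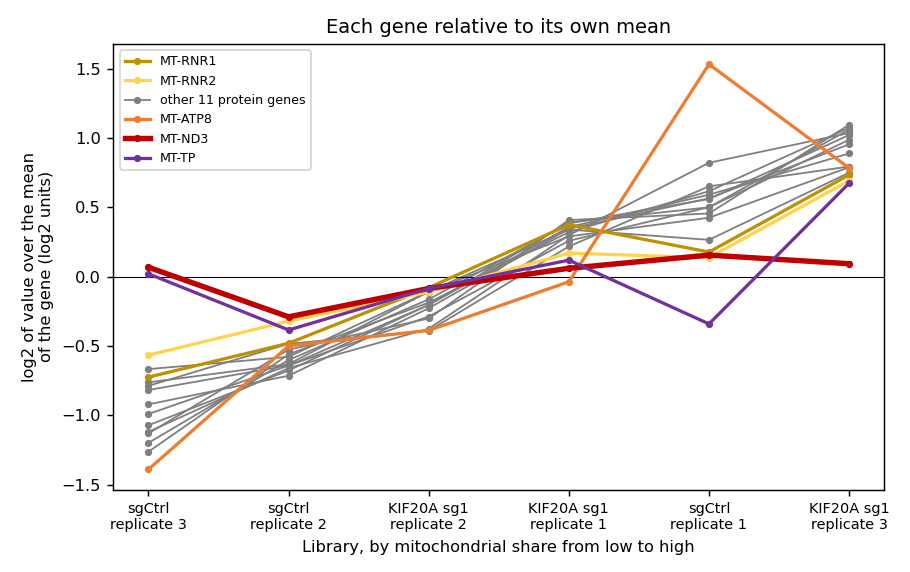
Lines give, for each of the 16 genes tested, the log2 of the value over the geometric mean of that gene (log2 units), with the libraries ordered by mitochondrial share from low to high. Most protein genes climb together from left to right, the rRNAs climb less, MT-ND3 stays nearly flat, MT-TP dips in sgCtrl replicate 1 and MT-ATP8 peaks there.

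The spread between replicates of 1 group was wide for most of these genes. The within-group SD on the log2 scale was 0.71 at the median of the 13 protein genes, from 0.18 for MT-ND3 to 1.01 for MT-ATP8. It was 0.44 for MT-RNR1, 0.38 for MT-RNR2 and 0.30 for MT-TP. In the 2477 nuclear genes that averaged 100 CPM or more, the median SD was 0.16 and the 95th percentile 0.33. Of the 14 members of that level, 13 lay above this percentile. MT-ND1 had a larger SD (0.87) than every one of these nuclear genes, and 4 of them had a larger one than MT-CO1 (0.68). MT-ND3 stood at percentile 58.7. MT-ATP8 and MT-TP were set beside the 2810 nuclear genes of 5 to 20 CPM, among which 6 had a larger SD than MT-ATP8 and 643 a larger one than MT-TP.

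**Figure D5:**
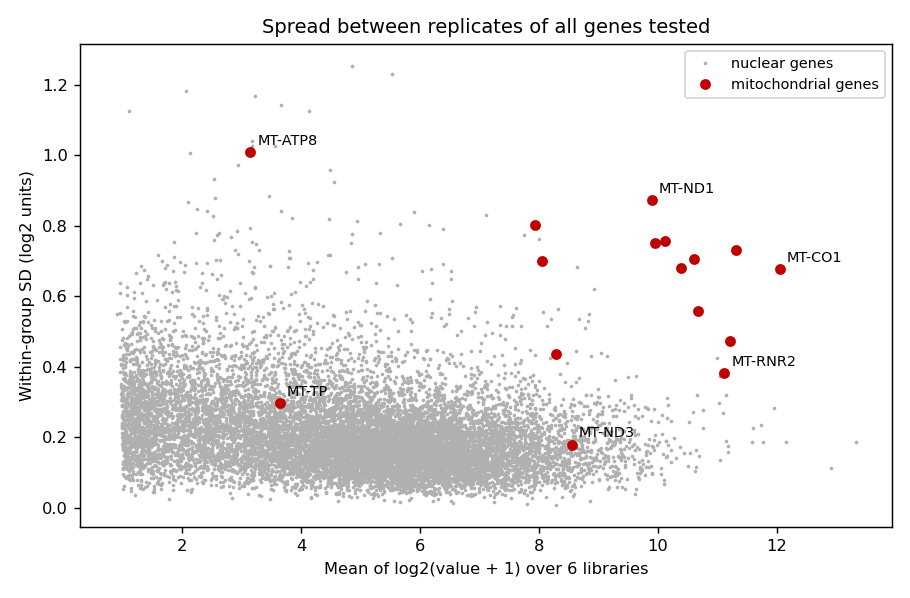
Each point is a gene tested, with the mean of log2(CPM + 1) over the 6 libraries on the x axis and the within-group SD in log2 units on the y axis. Grey points are nuclear genes and red points the 16 mitochondrial genes, of which most lie above the grey points of the same level, while MT-ND3 and MT-TP lie among them.

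Near-identical copies of mitochondrial genes lie in the nuclear genome, and reads can be divided between a gene and its copies. Of 415 rows named as such copies, 44 were above 0 in a library and 3 had a mean of at least 1 CPM. These 3 belong to 1 stretch of chromosome 1. MTATP6P1 (chr1:633696-634376, 98.5% identical to MT-ATP6) was listed at 86.1, 52.3 and 43.8 CPM in sgCtrl and at 88.6, 60.7 and 141 CPM in KIF20A sg1. MTCO1P12 (chr1:631074-632616, 98.6% identical to MT-CO1) was listed at 24.4, 9.75 and 5.48 CPM in sgCtrl and at 12.4, 7.38 and 19.9 CPM in KIF20A sg1. MTND2P28 (chr1:629640-630683, 98.4% identical to MT-ND2) was listed at 1.48 to 3.66 CPM in sgCtrl and at 1.98 to 5.03 CPM in KIF20A sg1. In each of the 3, sgCtrl replicate 1 and KIF20A sg1 replicates 1 and 3 were the highest libraries, as in most mitochondrial genes. Relative to its mitochondrial original, MTATP6P1 held 3.75% to 5.53% of the signal, MTCO1P12 0.212% to 0.405% and MTND2P28 0.130% to 0.178%. The next copies by mean, MTCO2P16 and MTATP6P16, had means of 0.447 and 0.391 CPM.

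Nuclear genes for the making and handling of mitochondrial RNA were counted in 3 lists. Of 61 genes, 60 were tested, and 0 had an adjusted p under 0.05 from limma. The transcription list also held genes of mitochondrial DNA replication, such as POLG and TWNK. The median log2 fold change was 0.04 for the 19 genes of that list and 0.08 for 19 genes of RNA processing and decay. It was -0.0011 for 24 genes of tRNA and rRNA modification, against 0.00 over all genes tested. Of the genes, 2 were in more than 1 list. With an unadjusted p under 0.05, 0 genes were higher and 2 were lower in KIF20A sg1, where 2.28% and 4.72% of all genes were. HSD17B10, a subunit of mitochondrial RNase P that cuts the 5′ ends of tRNAs, was listed at 49.7, 49.8 and 45.7 CPM in sgCtrl and at 34.4, 37.7 and 33.1 CPM in KIF20A sg1, a log2 fold change of -0.45 ± 0.12 (SE; limma, adjusted p = 0.69). MRPL12, a mitochondrial ribosomal protein that is also known to bind the mitochondrial RNA polymerase, was listed at 13.7, 11.3 and 4.01 CPM in sgCtrl and at 2.95, 3.47 and 3.34 CPM in KIF20A sg1, a log2 fold change of -1.19 ± 0.33 (SE; limma, adjusted p = 0.69). Neither gene's groups overlapped, though sgCtrl replicate 3 of MRPL12 lay close to KIF20A sg1. Groups did not overlap for 10 of the 60 list genes tested and for 13.0% of all genes. In GENCODE 44, 701 of the 1009 exon bases of MRPL12 and 218 of the 2822 of HSD17B10 overlap another gene on the same strand, so both levels are uncertain. DESeq2 called 1 gene of the lists, MRPL12, as did limma without sgCtrl replicate 3.

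Subunits of the same complexes that are encoded in the nucleus are given beside those of the mitochondrial genome, without a test of the difference. The study had singled out oxidative phosphorylation in these same samples. The nuclear subunits were listed here after the data were seen, so they are not independent evidence. In complex I, 30 of 36 nuclear subunits tested had a log2 fold change under 0, with a median of -0.16, where 50.4% of all genes were above 0 and the median of all genes was 0.00, while all 7 mitochondrial subunits were above 0, with a median of 0.69. In complex III the median was -0.17 for 9 nuclear subunits and 0.80 for MT-CYB. In complex IV it was -0.18 for 10 nuclear subunits and 0.64 for the 3 mitochondrial ones, and in complex V -0.14 for 18 and 0.44 for 2. The value of 0.44 joins MT-ATP6 at 0.71 and MT-ATP8 at 0.17, and no direction is given for MT-ATP8. In complex I, MT-ND3 was at 0.04, and its sign also changed in an alternative fit. No subunit of either kind had an adjusted p under 0.05 from limma. With an unadjusted p under 0.05, 15 of the 77 nuclear subunits tested were lower and 0 higher in KIF20A sg1, where 4.72% and 2.28% of all genes were. Of the 13 mitochondrial subunits 1, MT-CO2, was higher by that count and 0 were lower. Some of the lower nuclear subunits rested on sgCtrl replicates 1 and 2. ATP5IF1, with the lowest log2 fold change, was listed at 41.1, 41.7 and 18.8 CPM in sgCtrl and at 17.6, 14.8 and 13.5 CPM in KIF20A sg1. For ATP5MF the groups overlapped through sgCtrl replicate 3. Others did not rest on them, such as UQCRH at 98.5, 104 and 87.9 CPM in sgCtrl and 75.5, 73.6 and 72.4 CPM in KIF20A sg1.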

How the data were processed

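The authors sequenced stranded, poly-A selected, paired-end libraries of MDA-MB-231 and aligned them to GRCh38. The submitters' processing notes name HISAT2 2.0.5 and featureCounts 1.5.0-p3, and the annotation release is not given in the sources used here. The deposited signal was reads per gene divided by 1 factor per library, which the authors named CPM, with column sums of 977394 to 1028621. Whole reads were recovered, and 100% of the values came out whole within 0.05 reads. A total of 0 sample columns were left unused.

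Groups and replicates came from the sample labels. The members and lists were chosen with earlier results of these data known. The 12852 genes that averaged 1 or more in the 6 libraries were tested two-sided on log2(CPM + 1) by limma 3.58.1 with a trend, in R 4.3.3, and p was adjusted over all of them by the method of Benjamini and Hochberg. The p-values measure the spread between these libraries, which the methods of the study call biological triplicates. On simulated data, limma called 91 of 100 genes changed 2-fold and 100 of 100 changed 4-fold, with 9.05% false calls. In this simulation the changed genes were drawn from all well-covered genes, and genes varied independently of each other. Most mitochondrial genes had a wider spread and shared their order of libraries, so these rates do not describe them. Shares were compared by exact permutation tests over 20 regroupings, and 3 ratios between genes were added after the data were seen. Alternatives were a pseudocount of 0.1, no minimum or a minimum of 10, 3 other scalings, edgeR 4.0.16 and DESeq2 1.42.0 on the recovered reads, a replicate block and each library left out. Values in the text were given in every library for the genes that passed the minimum, and from the pathway lists for up to 5 genes per direction with the smallest unadjusted p under 0.05. The 5 nuclear copies named have the highest means. Nuclear subunits were added after the data were seen. Tables and figures were made with Python 3.11.15, scipy 1.17.1 and matplotlib 3.10.9.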

Additional observations from a re-analysis of the deposited data

How the results depend on the processing

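In none of the 16 alternative fits did a mitochondrial gene have an adjusted p under 0.05, and the lowest was 0.17. With each library left out, 0 to 144 of all genes were called and 0 to 1 genes of the pathway lists, the 144 and the 1 without sgCtrl replicate 3, and 5 genes without KIF20A sg1 replicate 2. DESeq2 called 16 of all genes and 1 of the lists. The median log2 fold change ranged from 0.39 to 1.16 for the protein genes and from 0.38 to 0.82 for the rRNAs. MT-ATP8 changed sign with edgeR (-0.20), DESeq2 (-0.21), and without sgCtrl replicate 2 (-0.02), sgCtrl replicate 3 (-0.38) or KIF20A sg1 replicate 3 (-0.13), and MT-ND3 without sgCtrl replicate 2 (-0.089). With each library left out, MT-ATP8 ranged from -0.38 to 0.90 and MT-ND3 from -0.089 to 0.13. The cause was not tested.

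With each library left out, the difference in mitochondrial share ranged from 0.322 to 1.43 percentage points, that in rRNA share from -2.79 to -0.406, that in tRNA share from -0.0301 to 0.00474 and that in light strand share from -0.0132 to 0.0841. Same-numbered replicates of the groups correlated at -0.05, -0.11 and -0.16, so these values gave no sign of pairing by number. Across numbers, sgCtrl replicates 1, 2 and 3 correlated with KIF20A sg1 replicates 3, 1 and 2 at 0.26, 0.28 and 0.25. With KIF20A sg1 replicates 2, 3 and 1 they correlated at -0.22, -0.10 and -0.14. What the libraries of a positive pair share was not tested. These correlations do not show whether the libraries were handled in pairs. With the replicate block, 0 genes and 0 members were called by limma. At an unadjusted p under 0.05 there were 10 of the 16 members, against 727 or 5.66% of all genes, and the members are not independent of each other. The mitochondrial share differed by 0.899 percentage points with a paired exact permutation p of 0.5. No difference was detectable for the 21 tRNAs that each had 4 reads or fewer in every library.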
